A study of Mus musculus with 10 samples.

Results

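The 10 genes described here encode receptors and adaptors that detect RNA or DNA in the cytosol, and they were followed in mouse macrophages treated with TLR7 ligands. The members were chosen by name, with earlier results of these data known. They are 10 of the 55573 genes in the table, namely Ddx58, Ifih1, Dhx58, Trim25, Mavs, Eif2ak2, Zbp1, Aim2, Ifi204 and Tmem173. All 10 were detected in every library and all 10 passed the filter on low values. WT bone marrow–derived macrophages (BMDMs) of female C57BL/6 mice, kept in M-CSF, were harvested at 4 hours in 5 groups of 2 libraries. The control group received vehicle. The polyU group received 5 μg of a uridine-only ssRNA complexed with the lipid DOTAP. The PNPi+dG/rG group received 1 μM ulodesine (a PNP inhibitor, PNPi) with 5 μM deoxyguanosine (dG) and 5 μM guanosine (rG). The PNPi+dG/rG+polyU group received all of these and is called the combination below. The labels name DOTAP only for groups with polyU, so effects of the RNA and of its carrier cannot be told apart. R848, a synthetic imidazoquinoline that activates TLR7, was given at 1 ng/mL. The labels call the 2 libraries of a group biological replicates, but the mice's age and whether each library came from another mouse are not given in the sources used here, so p-values measure only the spread between these libraries. Levels are in CPM, reads on a gene scaled to the same total of reads in each library. Depth ran from 14128124 to 38392607 reads on genes, and the fewest reads behind a member value were 199, for Tmem173 in R848 replicate 1.

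RIG-I (Ddx58) and MDA5 (Ifih1) are helicases that bind viral RNA in the cytosol and signal through MAVS on the mitochondrial membrane to the kinases that turn on type I IFN genes. LGP2 (Dhx58) is a related helicase without the signaling domains, and TRIM25 is a ubiquitin ligase described as an activator of RIG-I. PKR (Eif2ak2) halts translation when it binds dsRNA, and ZBP1 binds Z-form nucleic acid and can start necroptosis. AIM2 assembles an inflammasome on dsDNA, Ifi204 encodes a DNA-binding protein of the same PYHIN family, and STING (Tmem173) is the adaptor that relays the cGAS signal. Many of these genes are themselves switched on by IFN, which is known to raise the sensing capacity of macrophages. TLR7, by contrast, senses ssRNA and guanosine analogs in the endosome and does not signal through MAVS or STING.

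Sequences around the start of 3 members are shown because they hold the letters that the IFN-activated factor ISGF3 is known to recognize. RefSeq windows of 300 bases (250 before and 50 after the annotated start, GRCm38.p6) were at hand for 6 of the 10 members: Ddx58, Ifih1, Eif2ak2, Mavs, Aim2 and Trim25. Dhx58, Zbp1, Ifi204 and Tmem173 were not searched. The letters GAAANNGAAA were searched on either strand and were present in Ddx58, Ifih1 and Eif2ak2, but not in the windows of Mavs, Aim2 and Trim25. In all, 3.44% of 32851 such windows held them. Stretches of 30 bases around each match follow, 5′ to 3′ on the strand of the gene, with the match in capitals.
Ifih1, chr2:62646206-62646235, minus strand: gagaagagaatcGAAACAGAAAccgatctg
Ddx58, chr4:40239804-40239833, minus strand: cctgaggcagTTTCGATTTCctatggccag
Eif2ak2, chr17:78882535-78882564, minus strand: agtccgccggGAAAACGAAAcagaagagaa
The match in Ddx58 is in the opposite orientation to the gene. The matches began 3 bases (Ddx58), 19 bases (Eif2ak2) and 33 bases (Ifih1) after the start. A match is a description of the letters and not of binding.

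The combination raised 6 of the 10 genes, Ddx58, Ifih1, Dhx58, Eif2ak2, Zbp1 and Ifi204, to between 3.37-fold (Eif2ak2) and 9.47-fold (Zbp1) above vehicle, and these 6, grouped after their values were seen, are called the induced group below. Mavs and Tmem173, the adaptors on which the RNA and DNA arms converge, fell, and Aim2 and Trim25 rose by only 0.24 and 0.38 on the log2 scale. The windows printed above belong to genes of the induced group. Among the 11978 genes tested by limma (adjusted p under 0.05), 22.2% were called higher and 46.7% lower in that comparison, against 8 and 2 of the 10 members. The median log2 difference was 1.87 over the 10 members and -0.22 over all tested genes. When each library was instead centred on its median gene, 33.2% of genes were higher and 33.2% lower, and the 10 members kept their directions and calls.

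**Figure D1:**
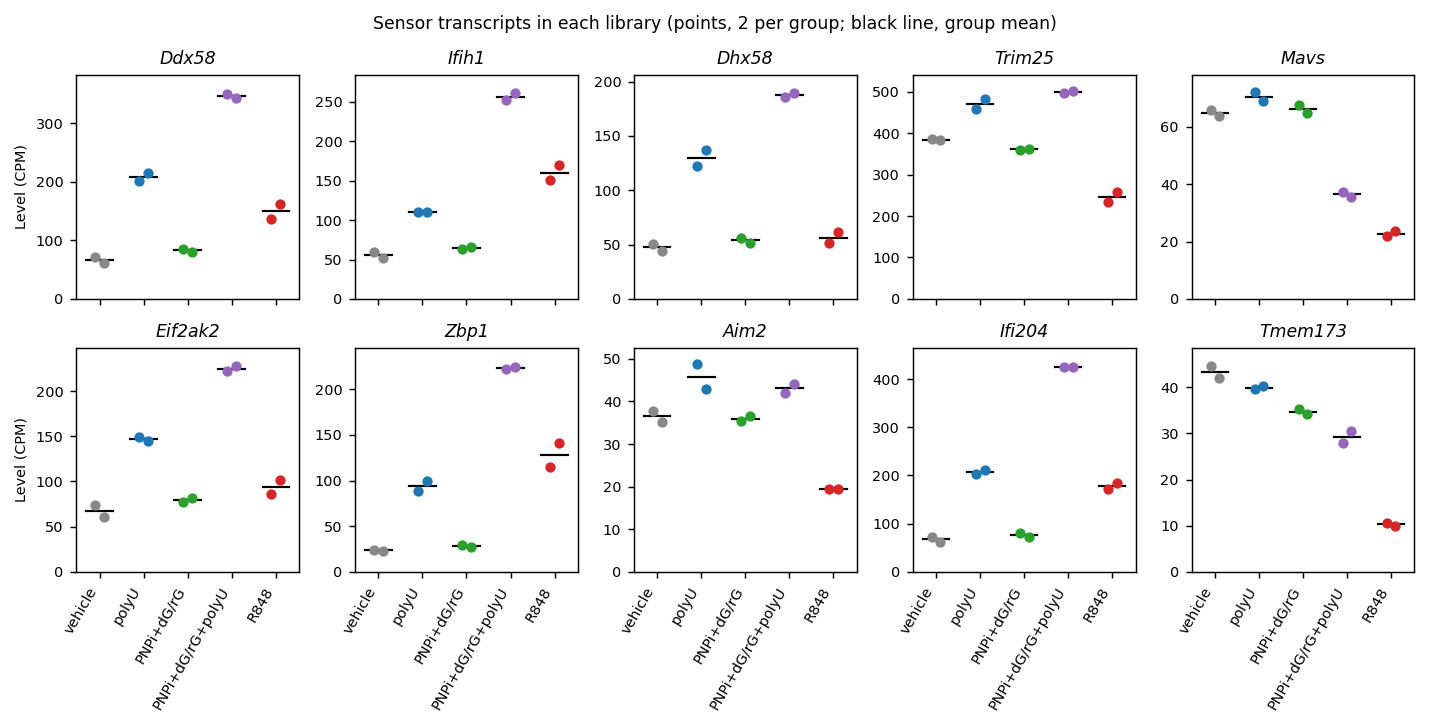
Level of each sensor transcript (CPM, vertical axis from 0) in every library, by group; points are the 2 libraries of a group and the black line is their mean. In Ddx58, Ifih1, Dhx58, Eif2ak2, Zbp1 and Ifi204 the combination (PNPi+dG/rG+polyU) points lie above all others, while in Mavs and Tmem173 they lie below all but the R848 points.

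The RNA helicases rose with polyU and further with the combination. Ddx58 (chr4:40203773-40239828, minus strand) stood at 71.8 and 62.1 CPM in vehicle, 201 and 216 in polyU, 85.5 and 80.9 in PNPi+dG/rG, 351 and 344 in the combination and 136 and 163 in R848. No group's range overlapped another's. Against vehicle the log2 difference was 1.64 ± 0.09 (SE, n = 2) with polyU (limma adjusted p = 4.31e-08), 2.38 ± 0.09 with the combination (adjusted p = 1.82e-10) and 1.16 ± 0.09 with R848 (adjusted p = 9.80e-08).

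Ifih1 (chr2:62595798-62646255, minus strand) read 59.9 and 51.5 CPM in vehicle, 110 and 110 in polyU, 62.8 and 65.3 in PNPi+dG/rG, 252 and 260 in the combination and 150 and 170 in R848. Unlike Ddx58, it was higher in both R848 libraries than in either polyU library. Its log2 difference from vehicle was 0.99 ± 0.07 with polyU, 2.21 ± 0.07 with the combination and 1.53 ± 0.07 with R848 (adjusted p = 4.84e-08, 4.40e-13 and 1.87e-11).

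Dhx58 (chr11:100694884-100704271, minus strand), which encodes the regulator LGP2, had 50.5 and 44.4 CPM in vehicle, 123 and 137 in polyU, 56.6 and 51.6 in PNPi+dG/rG, 186 and 189 in the combination and 51.1 and 61.7 in R848. The R848 range overlapped that of PNPi+dG/rG, and the 4 libraries that received polyU lay above all others. Its log2 difference from vehicle was 1.45 ± 0.09 with polyU and 1.99 ± 0.09 with the combination. With R848 it was 0.25 ± 0.09 (adjusted p = 0.027), a call lost without vehicle replicate 2 (0.15, adjusted p = 0.197) or R848 replicate 2 (0.11, adjusted p = 0.269), while centred libraries gave 0.84 (adjusted p = 2.96e-06). The antisense gene Dhx58os overlaps Dhx58 on the other strand, but it reached at most 0.141 CPM.

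The balance of the helicases can be described by ratios of reads within a library, which do not depend on how libraries are scaled and were not tested. Reads on Ifih1 per read on Ddx58 were 0.834 and 0.829 in vehicle, 0.546 and 0.509 in polyU, 0.734 and 0.808 in PNPi+dG/rG, 0.719 and 0.758 in the combination and 1.11 and 1.04 in R848. Only the R848 libraries had more Ifih1 than Ddx58 reads. Dhx58 reads per Ddx58 read were 0.703 and 0.716 in vehicle, 0.609 and 0.635 in polyU, 0.661 and 0.638 in PNPi+dG/rG, 0.529 and 0.551 in the combination and 0.375 and 0.379 in R848. These ratios show unequal change of the genes and compare reads, not molecules, since the transcripts differ in length.

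Trim25 (chr11:88999376-89020293, plus strand) had the highest level per length of the 10 in vehicle, 66.8 CPM per kb of exon, against 6.67 for Zbp1, the lowest. Its values were 385 and 384 CPM in vehicle, 458 and 481 in polyU, 360 and 361 in PNPi+dG/rG, 497 and 502 in the combination and 233 and 258 in R848. The ranges did not overlap, but the steps upward were small. Log2 differences from vehicle were 0.29 ± 0.05 with polyU and 0.38 ± 0.05 with the combination (adjusted p = 1.55e-04 and 2.79e-06). With R848 the difference was -0.65 ± 0.05 (adjusted p = 2.59e-09), and it was -0.05 (adjusted p = 0.294) with centred libraries.

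Mavs (chr2:131234063-131248025, plus strand), the adaptor of both RIG-I and MDA5, fell with the combination and with R848, under which Ddx58 and Ifih1 rose. It was listed at 65.8 and 63.6 CPM in vehicle, 71.9 and 69.0 in polyU, 67.4 and 64.7 in PNPi+dG/rG, 37.3 and 35.5 in the combination and 21.9 and 23.7 in R848. Vehicle and PNPi+dG/rG overlapped, and neither PNPi+dG/rG nor polyU was called different from vehicle. The log2 difference from vehicle was 0.12 ± 0.06 with polyU (adjusted p = 0.148), -0.83 ± 0.06 with the combination (adjusted p = 1.22e-08) and -1.51 ± 0.06 with R848 (adjusted p = 3.55e-12). Centred libraries gave -0.62 and -0.91 for the last pair of values, both called.

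Reads on Ddx58 per read on Mavs were 1.09 and 0.977 in vehicle, 2.80 and 3.13 in polyU, 1.27 and 1.25 in PNPi+dG/rG, 9.40 and 9.67 in the combination and 6.21 and 6.88 in R848. For Ifih1 the ratio was 0.910 and 0.810 in vehicle, 1.53 and 1.59 in polyU, 0.932 and 1.01 in PNPi+dG/rG, 6.75 and 7.33 in the combination and 6.86 and 7.18 in R848. For Ifih1 the ratios of the combination and R848 overlapped although the Ifih1 level itself differed between them. No test was made on these ratios.

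Eif2ak2 (chr17:78852564-78882573, minus strand), the dsRNA-activated kinase PKR, was at 73.5 and 60.7 CPM in vehicle, 149 and 145 in polyU, 77.8 and 81.8 in PNPi+dG/rG, 222 and 228 in the combination and 86.6 and 102 in R848. All 5 ranges were separate, with R848 closest to the PNPi+dG/rG libraries. Log2 differences from vehicle were 1.14 ± 0.09 with polyU, 1.75 ± 0.09 with the combination and 0.49 ± 0.09 with R848 (adjusted p = 1.38e-06, 4.85e-09 and 2.95e-04). With centred libraries the R848 difference was 1.09. The lincRNA gene Gm26637 overlaps Eif2ak2 on the other strand and was listed at 1.97 to 5.35 CPM.

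Zbp1 (chr2:173206612-173218923, minus strand), which encodes the Z-form nucleic acid receptor, had the largest fold of the 10 with the combination. From 24.1 and 23.0 CPM in vehicle it reached 88.9 and 99.4 in polyU, 222 and 224 in the combination and 115 and 141 in R848, with 29.2 and 27.1 in PNPi+dG/rG. No ranges overlapped. The log2 difference from vehicle was 2.00 ± 0.08 with polyU, 3.24 ± 0.08 with the combination and 2.44 ± 0.08 with R848 (adjusted p = 4.45e-10, 1.73e-13 and 2.05e-12). Per kb of exon, Zbp1 went from the lowest of the 10 in vehicle to 63.1 CPM per kb in the combination, below only Ifi204 (119) and Trim25 (86.8).

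The DNA arm split within itself. Ifi204 (chr1:173747293-173766943, minus strand) read 73.0 and 62.4 CPM in vehicle, 203 and 211 in polyU, 81.1 and 72.2 in PNPi+dG/rG, 425 and 424 in the combination and 173 and 184 in R848. Only vehicle and PNPi+dG/rG overlapped. Its log2 difference from vehicle was 1.62 ± 0.07 with polyU, 2.65 ± 0.07 with the combination and 1.40 ± 0.07 with R848 (adjusted p = 9.12e-10, 3.42e-13 and 2.22e-10). Of its 50-base stretches, the read length, 20.0% also occur in other genes, 14.8% in the family member Ifi211. Its level could therefore hold reads of relatives, and the counting rule for such reads is not given in the sources used here.

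Aim2 (chr1:173350879-173466040, plus strand), the dsDNA receptor of the inflammasome, differed most from vehicle with R848 in the values as deposited. It stood at 37.9 and 35.2 CPM in vehicle, 48.7 and 42.8 in polyU, 35.5 and 36.5 in PNPi+dG/rG, 42.0 and 44.1 in the combination and 19.5 and 19.5 in R848. The ranges of polyU and the combination overlapped, as did vehicle and PNPi+dG/rG, while the R848 libraries were below all others. The log2 difference from vehicle was 0.32 ± 0.08 with polyU (adjusted p = 0.00335) and -0.90 ± 0.08 with R848 (adjusted p = 1.89e-08). With the combination it was 0.24 ± 0.08 (adjusted p = 0.012), which was no longer called without vehicle replicate 2 (adjusted p = 0.092) or combination replicate 2 (adjusted p = 0.0774). In centred libraries the Aim2 differences were 0.28 with polyU, 0.45 with the combination and -0.31 with R848, all called. There R848 no longer gave the largest difference. Cadm3 overlaps Aim2 on the other strand and reached at most 0.233 CPM.

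Tmem173 (chr18:35733679-35740554, minus strand), which encodes the adaptor STING, did not rise in any group. Its values were 44.6 and 42.0 CPM in vehicle, 39.6 and 40.2 in polyU, 35.3 and 34.1 in PNPi+dG/rG, 27.8 and 30.5 in the combination and 10.6 and 10.0 in R848. The 5 ranges were separate and in that order, but vehicle and polyU (adjusted p = 0.255) and polyU and PNPi+dG/rG (adjusted p = 0.0532) were not called different. Relative to vehicle it fell by 0.57 ± 0.08 on the log2 scale with the combination (adjusted p = 7.97e-06) and by 2.07 ± 0.08 with R848 (adjusted p = 6.23e-13), the lowest R848 difference of the 10. In centred libraries these became -0.36 and -1.48, both still called. In these bulk cultures fewer cells expressing a gene and less RNA per cell cannot be told apart.

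**Figure D2:**
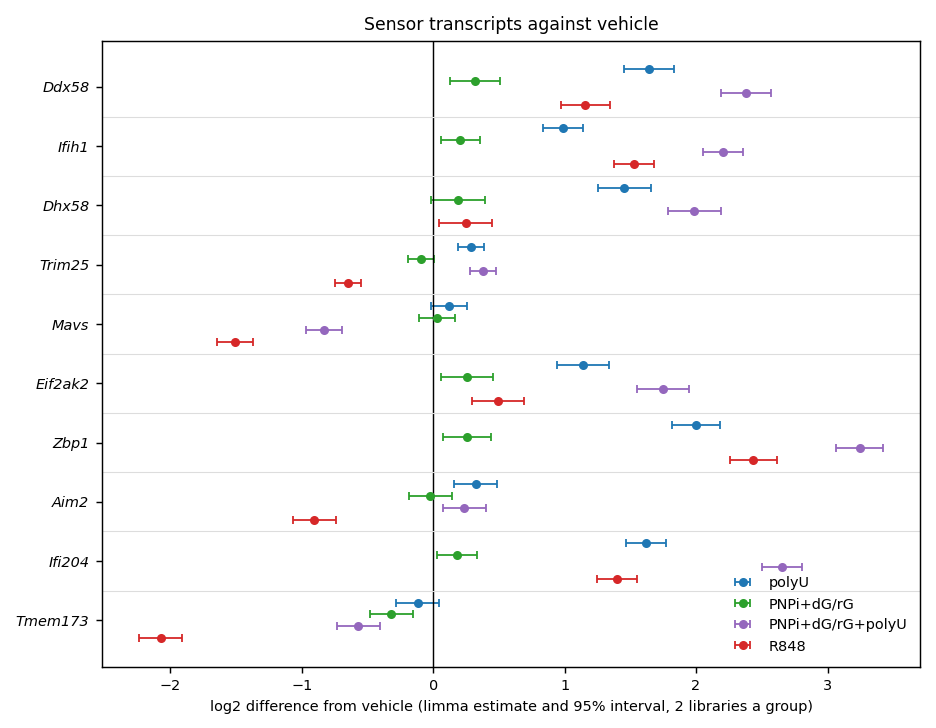
Log2 difference of each sensor transcript from vehicle (horizontal axis; limma estimate and 95% interval, 2 libraries a group) for polyU, PNPi+dG/rG, the combination (PNPi+dG/rG+polyU) and R848; all 4 share the vehicle libraries. Zbp1 reaches 3.24 with the combination, while Mavs and Tmem173 lie left of 0 there and further left with R848.

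PolyU alone raised 8 of the 10 members and lowered 0, against 20.6% of all tested genes called higher and 18.7% lower (17.2% and 22.8% with centred libraries). The 2 members not called were the adaptors Mavs and Tmem173. At an unadjusted p under 0.05 the number lowered was also 0. For that threshold the share of all tested genes is not reported here.

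PNPi+dG/rG without polyU left the 10 members close to vehicle. None was called higher or lower by limma, where 0.409% of all tested genes were called higher and 0.392% lower. The share of all tested genes at an unadjusted p under 0.05 is not reported here. At that threshold, 5 members were higher (Ddx58, Ifih1, Zbp1, Eif2ak2 and Ifi204) and Tmem173 was lower. The largest of these differences, that of Tmem173, was -0.32 (95% interval -0.48 to -0.15, adjusted p = 0.0839), and it was called in centred libraries (-0.35, adjusted p = 0.046). Ddx58 differed by 0.32 (95% interval 0.13 to 0.51, adjusted p = 0.175) and was called without R848 replicate 1 (adjusted p = 0.0296) or R848 replicate 2 (adjusted p = 0.0307), which enter this comparison only through the shared estimate of spread. The intervals of the other 8 lay between -0.19 and 0.45. Without the filter on low values 4 were called higher, Ddx58 (adjusted p = 5.78e-07), Eif2ak2 (0.00246), Zbp1 (0.0416) and Ifi204 (0.0438). The difference of Ddx58 was the same in that fit (0.32), while its SE went from 0.085 to 0.051. Genes at or near 0 reads enter the shared estimate of spread there. The share of all genes called in the unfiltered fit is not reported here.

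R848 against vehicle raised the 6 genes of the induced group and lowered Mavs, Tmem173, Aim2 and Trim25. In the same comparison 19.2% of all tested genes were called higher and 62.9% lower, and the median log2 difference was -0.50 over all tested genes and 0.37 over the members. Centred libraries moved this background to 43.0% higher and 34.7% lower. There 6 members were still higher and Mavs, Tmem173 and Aim2 still lower, and Trim25 was not called. The R848 libraries also held reads of fibroblast genes: the summed level of 6 such markers was 138 and 147 CPM, with 5 of the 6 at 1 CPM or more, against 0.561 to 1.26 in vehicle, polyU and PNPi+dG/rG and 3.75 to 5.14 in the combination. In the combination nearly all of the fibroblast sum was Pdgfrb (3.19 and 4.29 CPM). Lum was the fibroblast marker under 1 CPM in R848 (mean 0.0307, against 0.0282 in vehicle). The summed level of 6 neutrophil markers was 21.1 to 23.4 CPM in R848 and 3.29 to 8.0 in the other groups. In R848 that sum was nearly all S100a8 (mean 22.2 CPM, against 1.80 in vehicle), with Ly6g, Mpo, Elane and Ltf at 0, while S100a9 was lower in R848 (mean 0.0267 CPM) than in vehicle (1.32). The part of either in the R848 results was not tested. The 8 macrophage markers were all above 1 CPM in every library. Of the T cell list, Cd3e and Cd3d were at 0 in every library. Lck of that list had a mean of 0.646 CPM in vehicle and 1.69 in the combination (limma adjusted p = 0.0127). Of the plasmacytoid dendritic cell list, Ccr9 had means of 0.281 CPM in vehicle, 2.40 in the combination and 3.27 in R848. Cox6a2 of that list had 1.52, 1.73 and 1.89. No gene of the B cell or conventional dendritic cell lists reached 1 CPM in both libraries of a group.

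With polyU present, adding PNPi+dG/rG raised 6 members (Ddx58, Ifih1, Dhx58, Eif2ak2, Zbp1 and Ifi204) and lowered Mavs and Tmem173, where 15.8% of all tested genes were higher and 47.5% lower (30.1% and 25.3% with centred libraries). The largest rises over polyU alone were in Zbp1 (2.37-fold), Ifih1 (2.33-fold) and Ifi204 (2.05-fold). Ddx58, Eif2ak2 and Dhx58 rose by less, 1.66-fold, 1.53-fold and 1.45-fold. Aim2 differed by -0.09 (95% interval -0.25 to 0.08) and Trim25 by 0.09 (95% interval -0.01 to 0.19), neither called, although Trim25 was called with centred libraries (0.35, adjusted p = 9.89e-06).

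Whether PNPi+dG/rG did more in the presence of polyU than without it was tested as an interaction, the log2 difference it made with polyU minus that without. The interaction was positive for 7 members and negative for Mavs, against 11.8% of all tested genes positive and 38.9% negative (24.1% and 17.0% with centred libraries). It was largest for Ifih1 (1.01 ± 0.10, adjusted p = 8.92e-07), Zbp1 (0.99 ± 0.12, adjusted p = 1.18e-05) and Ifi204 (0.86 ± 0.10, adjusted p = 1.04e-05), and for Mavs it was -0.98 ± 0.09 (adjusted p = 3.44e-07). These 4 held under every alternative. The values for Ddx58 (0.42 ± 0.12), Eif2ak2 (0.36 ± 0.13), Dhx58 (0.34 ± 0.13) and Trim25 (0.18 ± 0.07) were called at adjusted p = 0.0135, 0.0351, 0.0463 and 0.0322 and each was lost on leaving out single libraries. The number of positive calls was 3 without polyU replicate 1 or PNPi+dG/rG replicate 2 and 4 without vehicle replicate 1, combination replicate 1 or combination replicate 2. For Aim2 and Tmem173 the interaction was -0.06 and -0.13, neither called.

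**Figure D3:**
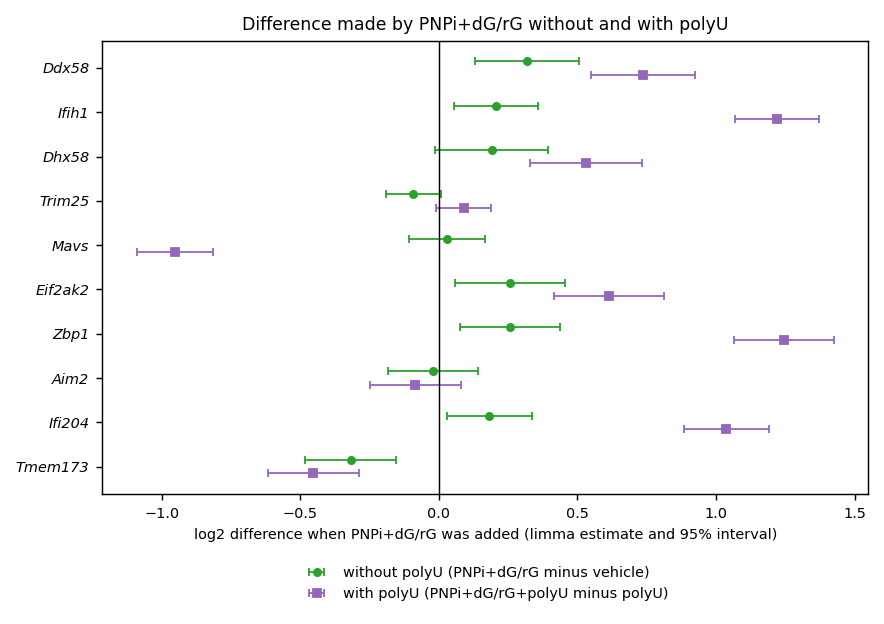
Log2 difference made by PNPi+dG/rG without polyU (circles, against vehicle) and with polyU (squares, against polyU), as limma estimates with 95% intervals. The circle and square lie far apart for Ifih1, Zbp1, Ifi204 and, in the other direction, Mavs. Their intervals overlap for Dhx58, Trim25, Eif2ak2, Aim2 and Tmem173.

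All 10 members were higher with the combination than with R848, the induced and the lowered alike. In this comparison 53.9% of all tested genes were called higher and 16.9% lower, so a shared direction was common. No member was lower, also at an unadjusted p under 0.05, for which the share of all tested genes is not reported here. With centred libraries, where 28.4% of genes were higher and 37.5% lower, all 10 members were still called higher. The difference was largest for Dhx58 (1.74 ± 0.09, or 3.34-fold) and Tmem173 (1.50 ± 0.08, or 2.83-fold). Ifih1 and Mavs differed least, by 0.68 ± 0.07 and 0.68 ± 0.06 as deposited, and by 0.30 and 0.29 with centred libraries. Doses and chemistry of the stimuli differ, so the comparison is between these treatments as given.

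**Figure D4:**
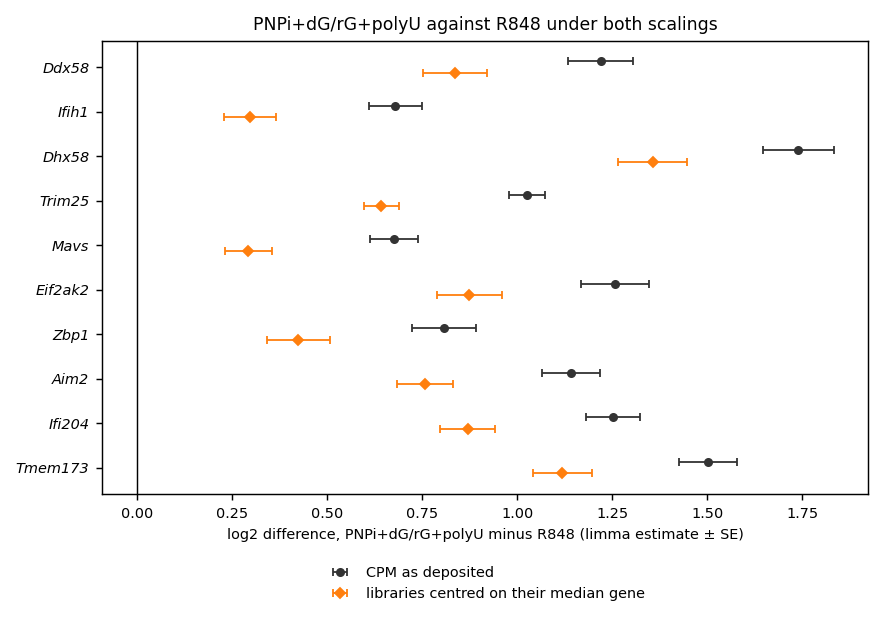
Log2 difference between the combination (PNPi+dG/rG+polyU) and R848 for each sensor transcript (limma estimate ± SE) with CPM as deposited (circles) and with each library centred on its median gene (diamonds). Every point lies right of 0, from 0.29 (Mavs, centred) to 1.74 (Dhx58, as deposited).

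The order of R848 and polyU alone separated the induced genes. Ifih1 and Zbp1 were higher with R848 (log2 differences 0.54 ± 0.07 and 0.44 ± 0.08, adjusted p = 3.96e-06 and 2.49e-04), and the other 8 members were higher with polyU, in a comparison where 18.0% of all tested genes were higher with R848 and 64.6% lower (41.7% and 34.7% with centred libraries). Centring kept the direction and the call for Ifih1, Zbp1, Dhx58, Mavs, Tmem173, Aim2 and Trim25. It turned Ifi204 from -0.22 to 0.42 (adjusted p = 1.13e-04), turned Ddx58 from -0.49 to 0.15 (adjusted p = 0.117) and brought Eif2ak2 from -0.64 to -0.01. The Ifi204 call was also lost without polyU replicate 2 (adjusted p = 0.0808) or R848 replicate 1 (adjusted p = 0.0807). Dhx58, at -1.21 as deposited and -0.57 centred, and Ifih1, at 0.54 and 1.18, therefore differed in opposite directions under both scalings.

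The genes most like the members over the 10 libraries were found by the Euclidean distance of log2 values centred on vehicle, among 8459 genes. Ddx58 lay closest to Xaf1 (distance 0.367), Parp9 (0.384) and Ddx60 (0.463), Eif2ak2 to Tap1 (0.298) and Trim34a (0.314), and Ifi204 to Helz2 (0.233). Zbp1 had no gene closer than Ifi203 (0.613). Ifih1 was nearest to Slc13a3 (0.435) and Lmo4 (0.452). The adaptors had other neighbours, Maz (0.236) for Mavs and Frmd4a (0.379) for Tmem173. For Aim2 and Trim25 the nearest were Hat1 (0.240) and Mpp1 (0.213).

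Partner genes were taken from 7 lists, each described by its counts. These are read against the shares of all tested genes, 22.2% higher and 46.7% lower with the combination (33.2% and 33.2% centred) and 19.2% and 62.9% with R848 (43.0% and 34.7% centred), where the median log2 differences were -0.22 and -0.50. Of 11 tested co-factors of RIG-I-like receptors, 5 rose (Rnf135, Zc3hav1, Ddx60, Trim14 and Riok3) and 3 fell (G3bp1, Nlrx1 and Ddx3x) with the combination (median 0.08), and centred libraries gave 7 higher and Nlrx1 alone lower. With R848, 4 rose (Ddx60, Dhx15, Ddx3x and Riok3) and 4 fell (Rnf135, G3bp1, Trim14 and Nlrx1; median -0.10), and centred libraries gave 6 higher and 2 lower. Ddx60, a helicase described as a RIG-I co-factor, went from 18.5 and 14.6 CPM in vehicle to 78.5 and 83.0 in the combination and 30.2 and 35.0 in R848. Rnf135 (Riplet), a ligase that ubiquitinates RIG-I, reached 26.9 and 25.8 CPM in the combination from 11.1 and 12.4 in vehicle, and stood at 5.95 and 9.40 in R848, where the difference was -0.05 (adjusted p = 0.77) after centring. Nlrx1, a mitochondrial protein described as a brake on MAVS, fell from 26.1 and 28.5 CPM in vehicle to 13.2 and 11.3 in the combination and 8.28 and 9.52 in R848. Riok3 rose with each, by 0.75 and 0.81 on the log2 scale.

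Downstream of MAVS and STING, 6 of 12 genes rose and 1 fell with the combination (10 higher and 1 lower when centred), and 7 rose and 2 fell with R848 (10 higher and 0 lower when centred). The list medians were 0.35 and 0.34, against 22.2% and 19.2% of all tested genes called higher. Ikbke, the inducible kinase that phosphorylates IRF3 and IRF7, stood at 86.5 and 90.0 CPM in vehicle, 301 and 321 in polyU, 629 and 620 in the combination and 508 and 519 in R848. Tank, a scaffold of that kinase, and Traf2 rose by 1.84 and 1.77 with the combination and by 1.55 and 1.50 with R848. The differences between these treatments were 0.28 for Ikbke, 0.29 for Tank and 0.26 for Traf2, and centring turned each to the other sign (-0.10, -0.09 and -0.12, none called). That of Traf2 was also lost without combination replicate 2 (adjusted p = 0.104). Tbkbp1, an adaptor of TBK1, fell by 1.29 with the combination and by 0.50 with R848, where centred libraries gave 0.10 (adjusted p = 0.279).

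In the list of cytosolic DNA sensing and handling all 12 tested genes fell with R848 (median log2 difference -1.46, against -0.50 over all tested genes). With the combination 4 fell (Enpp1, Xrcc6, Prkdc and Mre11a) and 2 rose (Samhd1 and Cgas), against 46.7% of all tested genes lower and 22.2% higher. In centred libraries 4 fell and 4 rose with the combination and 9 fell and 2 rose with R848. Samhd1, the dNTPase that limits cytosolic DNA, went from 271 and 271 CPM in vehicle to 520 and 543 in the combination and 193 and 211 in R848; its R848 difference of -0.42 became 0.17 (adjusted p = 0.00561) on centring. The cGAS gene Cgas, which makes the messenger that STING binds, was at 35.5 and 32.0 CPM in vehicle, 55.0 and 46.8 in the combination and 10.8 and 12.7 in R848. Enpp1, which degrades that messenger, and the DNA repair genes Xrcc6 and Prkdc fell under both treatments, by 0.80, 0.89 and 1.63 with the combination and by 2.20, 2.00 and 2.15 with R848. Trex1 was listed at 0 in every library and shares its locus with Atrip on the same strand.

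All 9 tested relatives of Aim2 and Ifi204 in the PYHIN family were higher with polyU and with the combination (median log2 differences 2.11 and 3.31, against 0.02 and -0.22 over all tested genes), and 8 were higher and Ifi207 lower with R848 (median 1.41), where Ifi207 too was higher after centring. Ifi205 went from 3.09 and 2.70 CPM in vehicle to 23.4 and 29.6 in polyU, 191 and 194 in the combination and 232 and 248 in R848. Ifi206 and Ifi208 rose by 3.59 and 3.74 with the combination but by 1.41 and 1.06 with R848. Between these 2 treatments 53.9% of all tested genes were higher with the combination and 16.9% lower (28.4% and 37.5% centred). Of the relatives, 7 were higher with the combination and Ifi205 was lower (-0.32), while Ifi211 was not called (0.24, adjusted p = 0.195, and -0.15 when centred). It was called higher without the filter on low values (adjusted p = 0.0293), with only the groups compared (5.84e-04) and without vehicle replicate 1 (0.0383) or 2 (0.0382). The Ifi205 call was lost without either combination library (adjusted p = 0.0716 and 0.0565) and without R848 replicate 2 (adjusted p = 0.0993), and that of Ifi208 with R848 was lost without R848 replicate 2 (adjusted p = 0.0693). These genes are similar in sequence, with 72.8% of the 50-base stretches of Ifi211 and 18.6% of those of Ifi205 shared with other genes.

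The 5 partners of the AIM2 inflammasome all rose with polyU and with the combination, where Aim2 itself differed from vehicle by 0.32 and 0.24. Their median log2 differences were 0.72 and 1.64, and 20.6% and 22.2% of all tested genes were called higher. Casp1, the protease it activates, went from 60.5 and 62.8 CPM in vehicle to 185 and 198 in the combination and 113 and 122 in R848. Il1b, its best known substrate, stood at 2.13 and 1.97 CPM in vehicle, 3.81 and 3.31 in polyU, 661 and 736 in the combination and 6558 and 6751 in R848. It was the only partner lower with the combination than with R848 as deposited (-3.25 ± 0.08), where 16.9% of all tested genes were lower. Gsdmd, the pore-forming substrate, joined it after centring (0.14 to -0.24, adjusted p = 0.00283), where 37.5% were lower. As deposited Gsdmd was barely called (adjusted p = 0.047), and the call was lost without combination replicate 2 (0.08, adjusted p = 0.344), R848 replicate 1 (adjusted p = 0.147) or R848 replicate 2 (adjusted p = 0.0961), and without either vehicle or either PNPi+dG/rG library. Pycard (ASC), the adaptor of the complex, had a log2 difference from vehicle of 0.19 with the combination, a call lost without vehicle replicate 1 (adjusted p = 0.0686) or combination replicate 2 (adjusted p = 0.088), and of -0.70 with R848, where centring gave -0.11 (adjusted p = 0.131).

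Partners of ZBP1 moved in both directions. Of 7 genes, 3 rose (Mlkl, Casp8 and Adar) and 3 fell (Ripk1, Ripk3 and Fadd) with the combination, where 46.7% of all tested genes fell, and centred libraries gave 3 higher and Fadd alone lower. With R848, 5 fell and only Adar rose, where 62.9% of all tested genes fell, and centred libraries gave 3 higher and 2 lower. The list medians were -0.18 and -0.59. Adar, which edits dsRNA and has a Z-form binding domain like ZBP1, went from 123 and 122 CPM in vehicle to 276 and 277 in the combination and 140 and 150 in R848. Ripk3, the kinase that ZBP1 recruits, read 27.9 and 29.9 CPM in vehicle, 21.7 and 24.1 in the combination and 11.7 and 11.5 in R848, and its difference with the combination was not called after centring (-0.13, adjusted p = 0.208). Mlkl, the executioner of necroptosis, differed from vehicle by 0.60 with the combination and by -0.60 with R848, and by -0.001 with R848 after centring.

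Around PKR, 3 of 8 genes rose and 3 fell with the combination (5 higher and 0 lower when centred), and 3 rose and 4 fell with R848 (5 higher and 3 lower when centred). The list medians were 0.04 and -0.15, and 46.7% and 62.9% of all tested genes fell. The risers included Ppp1r15a and Ppp1r15b, which direct the phosphatase that reverses the PKR mark on eIF2α. Ppp1r15a went from 21.9 and 23.7 CPM in vehicle to 88.8 and 84.8 in the combination and 58.9 and 60.5 in R848. Prkra, a protein activator of PKR, and Ddit3, a target of the eIF2 stress pathway, differed from vehicle by -0.31 and -0.26 with the combination, calls that were lost in centred libraries. That of Prkra was also lost without vehicle replicate 2 (adjusted p = 0.0631) or combination replicate 1 (adjusted p = 0.0512). That of Ddit3 was lost without vehicle replicate 1 (adjusted p = 0.0681), combination replicate 1 (adjusted p = 0.0544) or combination replicate 2 (adjusted p = 0.0501). With R848 they fell by 1.15 and 0.84. Across all 7 lists, PNPi+dG/rG without polyU moved 1 gene past the threshold, Traf3 (0.25, adjusted p = 0.0459), where 0.409% of all tested genes were called higher, and with centred libraries none was called.

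**Figure D5:**
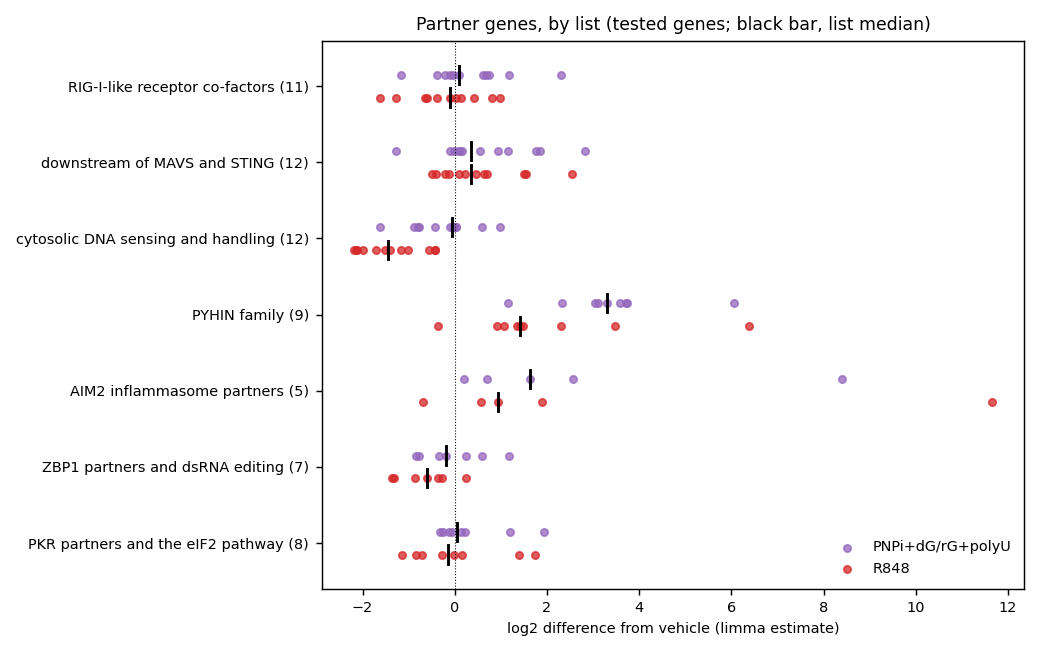
Log2 difference from vehicle (horizontal axis, limma estimate) of the tested partner genes, by list, for the combination (PNPi+dG/rG+polyU) and R848; each point is a gene, the black bar is the list median and the number of genes is in brackets. The PYHIN medians are 3.31 and 1.41, and the list of DNA sensing and handling has a median of -0.07 with the combination and -1.46 with R848; over all tested genes the medians are -0.22 and -0.50.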

How the data were processed

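RNA-Seq libraries of BMDMs were made with a stranded mRNA kit and read as 50 bp single reads. Per the labels and the study's methods, the authors used bcl2fastq 2.19.1.403 and STAR 2.27a, counted reads on Ensembl genes of GRCm38 and normalized in Partek Flow. The authors deposited 1 table of CPM values plus an offset of 0.0001 for 55573 genes in 10 libraries. Strand use in counting and the handling of reads shared by genes are not given in the sources used here. CPM values in a library fall when a few genes take a larger share.

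Low values rise in equal steps, each worth 1 read, which gave the depth. The smallest amount taken as detectable, 3 reads, was 0.0781 to 0.212 CPM. limma 3.58.1 (R 4.3.3, statmod 1.5.0) was fitted to log2 of the deposited values of all 5 groups, with trend and robust eBayes. Testing covered 11978 genes that reached 1 CPM in 2 or more libraries, with Benjamini-Hochberg adjustment per comparison. Called means adjusted p under 0.05. A fold is 2 raised to a difference of log2 means. Scripts were tested on simulated data.

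Groups and replicate numbers came from the labels. Alternatives were offsets of 0.1 and 1, no filter, a filter on the mean, libraries centred on their median, plain eBayes, only the groups compared, a replicate block, and leaving out each library. Members and lists were chosen with earlier results of these data known. The members were always named. From each list up to 4 genes are named, among those called and with a mean of at least 10 CPM. They have the largest absolute log2 difference from vehicle under PNPi+dG/rG+polyU. The text also names the genes of some, not all, counts of 5 or fewer. For each member but Dhx58, for which this is not reported here, it names up to 3 genes most like it. Cgas, Trex1 and genes overlapping a named gene were described after their values were seen. Positions and exon lengths are from GENCODE M21 (GRCm38), in which 55394 identifiers have a symbol.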

Additional observations from a re-analysis of the deposited data

Results flagged for a closer look

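The difference made by PNPi+dG/rG with polyU minus that without polyU passed the test of the difference itself for 8 of the 10 sensors, 7 positive and 1 negative, where 11.8% of all tested genes were positive and 38.9% negative. The log2 interaction was 1.01 for Ifih1, 0.99 for Zbp1, 0.86 for Ifi204, 0.42 for Ddx58, 0.36 for Eif2ak2, 0.34 for Dhx58 and 0.18 for Trim25, where the effect was more positive with polyU. The calls of Ddx58, Eif2ak2, Dhx58 and Trim25 were each lost with plain eBayes, which left 3 positive calls, and without polyU replicate 1 or PNPi+dG/rG replicate 2. For Mavs it was -0.98, since PNPi+dG/rG lowered it with polyU and left it within the spread of the libraries without polyU. Groups of 2 libraries are too small to look for single libraries that stand apart.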

How the results depend on the processing

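Of the alternatives run on the 10 sensors in 8 comparisons, 1519 values kept their side of the threshold, 39 lost the call and 10 gained it. Among the 1519, values not called in either fit could change sign, as the Tmem173 interaction did with centred libraries (from -0.13 to 0.15). Another 2 changed sign with a call in the main fit or the alternative, and these are named reversals. The reversals were Ddx58 (0.15) and Ifi204 (0.42), R848 against polyU, with centred libraries. For the counts of called sensors, the number higher with PNPi+dG/rG alone went from 0 to 4 without the filter on low values. The share of all genes called in that unfiltered fit is not reported here. In a fit without the R848 libraries, an alternative chosen after seeing the data, the number went to 1. It ranged from 0 to 1 on leaving out single libraries. The number lower with PNPi+dG/rG alone became 1 with centred libraries. The number with a positive interaction went from 7 to 3 with plain eBayes and ranged from 3 to 7 on leaving out single libraries. Among partners, centring reversed Traf2 (-0.12), Ikbke (-0.10), Tank (-0.09) and Gsdmd (-0.24) for PNPi+dG/rG+polyU against R848, and Tbkbp1 (0.10) and Samhd1 (0.17) for R848 against vehicle. The causes were not tested. Whether the replicate numbers pair the libraries is not settled. The correlation of same-numbered libraries' deviations had a median of -0.02 over 10 pairs of groups (-0.29 to 0.11). The lowest were those of PNPi+dG/rG with vehicle (-0.29) and with polyU (-0.27). With the number as a block, the positive interactions were 5 (Dhx58, adjusted p = 0.0708, and Eif2ak2, adjusted p = 0.0668, were not called), and every other count of called sensors was the same. Crossing the PNPi+dG/rG numbers, added after seeing the data, gave 6. Calls lost under the block do not show a weaker effect. A test on recovered read counts was planned and not run, because the deposited values carry the offset and step in whole reads only once it is subtracted. Precision is limited by groups of 2 libraries and by depth, the least covered sensor value resting on 199 reads.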
